A study of Mus musculus with 11 samples.

Results

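Tgm3, Sbspon, Gna14, Bmx, Klk1, Tek, Ceacam1 and Laptm5 were examined as a set of 8 genes, out of 22180 genes with a named probe set, that stood high in mouse fibroblasts poised to be reprogrammed into stem cells. They were selected on these arrays' own intensities, for large differences between poised and CD73- or unsorted cells. That difference describes how they were chosen and carries no test. It was smaller for Tek (2.47-fold over CD73- cells) and Laptm5 (2.25-fold), and genes outside the set ranked above some of the 8. Each of the 8 had 1 probe set that names no other gene, and all 8 passed the filter on dim probe sets. The rule gave no numerical threshold.

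Total RNA from 11 cell samples was hybridised to Affymetrix whole-transcript arrays, 1 array per group. The 8 reprogramming samples started from passage 4 Rosa-rtTA +/- embryonic fibroblasts, which carry the doxycycline-dependent activator rtTA at the Rosa locus. All of them had received 4 inducible factors by infection (tetO-Sox2, tetO-Klf4, tetO-Myc and tetO-Oct4) and doxycycline from day 0. At day 6 and day 9, 3 populations were obtained by double sorting, of which the CD49d+ and the CD73+ cells are labelled poised and the CD73- cells non-poised, and unsorted cells were taken as well. CD73 is the ectonucleotidase encoded by Nt5e, and CD49d is the integrin chain encoded by Itga4. The controls were Rosa-rtTA +/- mouse embryonic fibroblasts at passage 4, whose label names no infection (MEF), the partially reprogrammed line SC4 at passage 10 and V6.5 embryonic stem cells at passage 11 (ESC). SC4 and V6.5 are single lines, and the labels do not say how many embryos or cultures stand behind an array.

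The 8 proteins come from unrelated families. Tek (Tie2), the angiopoietin receptor of endothelium, and Ceacam1, a cell adhesion molecule of the immunoglobulin superfamily, sit at the cell surface. Gna14, an alpha subunit of the Gq class, and Bmx, a non-receptor tyrosine kinase of the Tec family, relay signals inside the cell. Klk1 (tissue kallikrein, which releases kinins from kininogen) and Sbspon (a matrix protein with somatomedin B and thrombospondin type 1 domains) are secreted. Tgm3 cross-links proteins of the hair follicle and the cornified envelope, and Laptm5 is a lysosomal membrane protein known mainly from blood cells. Reprogramming starts from fibroblasts that must give up their own program and pass through intermediate states before stem cell genes are switched on.

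Promoter sequences from RefSeq (build GRCm38.p6, 250 bases before to 50 after the annotated start) were on hand for 7 of the 8 genes. A total of 6 short motifs were searched on both strands in these windows, namely CACGTG (the E-box read by Myc), CCACCC (a Klf-type box), ATGCAAA (part of the octamer read by Oct4), ACAATG (a Sox-type site), CCGGAA (an ETS core) and TGACTCA (an AP-1 site). Matches are in capitals, and no match overlapped another. The 3 windows that hold a match are shown first. Those of Tgm3, Bmx, Tek and Laptm5 hold none. Of these, Tgm3 and Bmx are shown, the pair of genes whose poised arrays all exceeded the 3 controls by at least 2-fold. The windows are chr19:16435417-16435716 (plus strand) for Gna14, chr7:44225110-44225409 (plus strand) for Klk1, chr7:25477576-25477875 (minus strand) for Ceacam1, chr2:130012090-130012389 (plus strand) for Tgm3 and chrX:164258144-164258443 (minus strand) for Bmx.
Gna14: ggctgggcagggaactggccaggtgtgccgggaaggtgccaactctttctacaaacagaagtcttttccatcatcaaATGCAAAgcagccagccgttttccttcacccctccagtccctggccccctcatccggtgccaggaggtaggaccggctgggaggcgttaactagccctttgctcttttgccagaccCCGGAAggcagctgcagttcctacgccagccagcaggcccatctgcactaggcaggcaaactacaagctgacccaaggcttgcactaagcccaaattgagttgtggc
Klk1: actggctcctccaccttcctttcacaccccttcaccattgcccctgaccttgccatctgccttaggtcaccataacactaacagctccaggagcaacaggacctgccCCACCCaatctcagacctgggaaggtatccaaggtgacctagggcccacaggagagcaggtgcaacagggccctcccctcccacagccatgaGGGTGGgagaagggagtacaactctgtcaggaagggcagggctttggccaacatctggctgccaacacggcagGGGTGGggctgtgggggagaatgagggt
Ceacam1: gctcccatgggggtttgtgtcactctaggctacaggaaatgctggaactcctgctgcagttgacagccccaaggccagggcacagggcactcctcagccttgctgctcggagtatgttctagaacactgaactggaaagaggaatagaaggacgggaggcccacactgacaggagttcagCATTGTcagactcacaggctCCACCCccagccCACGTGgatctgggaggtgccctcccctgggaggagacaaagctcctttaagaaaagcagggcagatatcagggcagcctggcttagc
Tgm3: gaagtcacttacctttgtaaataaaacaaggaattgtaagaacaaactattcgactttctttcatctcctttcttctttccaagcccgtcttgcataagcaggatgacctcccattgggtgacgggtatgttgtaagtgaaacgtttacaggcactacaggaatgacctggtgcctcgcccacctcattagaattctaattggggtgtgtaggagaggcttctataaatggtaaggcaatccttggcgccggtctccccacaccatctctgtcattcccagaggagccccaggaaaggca
Bmx: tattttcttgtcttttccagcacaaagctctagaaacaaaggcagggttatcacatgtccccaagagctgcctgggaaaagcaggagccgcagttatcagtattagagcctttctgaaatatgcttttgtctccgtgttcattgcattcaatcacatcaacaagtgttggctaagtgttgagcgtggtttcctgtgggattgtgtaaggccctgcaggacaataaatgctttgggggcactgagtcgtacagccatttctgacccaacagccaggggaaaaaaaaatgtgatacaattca

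Positions count from the annotated start. Gna14 held ATGCAAA at -173 and CCGGAA at -57, Klk1 held CCACCC or its reverse complement at -143, -51 and 23, and Ceacam1 held ACAATG on the opposite strand at -70, CCACCC at -50 and CACGTG at -38. CCACCC thus occurred in 2 of 7 windows, against 31.5% of all 32851 windows of this length. Each of CACGTG (7.15% of all windows), ATGCAAA (4.63%), ACAATG (12.6%) and CCGGAA (14.9%) occurred in 1 of 7, and TGACTCA (5.2%) in 0 of 7. The letters of a match do not show that a factor binds there. GC content ran from 44.7% in Bmx to 62.3% in Laptm5 with a median of 57.3%, against a median of 52.7% over all windows.

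The arrays were alike in overall brightness, with 52.14% to 54.31% of probe sets at the floor of 100, the lowest intensity in the table. The sorted cells followed their gates: Nt5e had intensities of 2704 to 3658 in poised cells and 292.4 to 331.9 in CD73- cells, and Itga4 had 1082 to 1859 in poised cells and 152.7 to 169.6 in CD73- cells. The summed intensity of 9 fibroblast markers was 43467 in MEF and that of 9 stem cell markers was 25417 in ESC, while poised cells had 3029 to 8090 and 1379 to 1999. CD73- cells had 6176 to 8139 and 1580 to 2111. In bulk samples such as these, fewer cells that express a gene and less RNA per cell cannot be told apart.

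Among the secreted and cross-linking proteins, Tgm3 and Sbspon were high on every poised array. Tgm3 had intensities of 1893 in CD49d+ and 817.4 in CD73+ cells at day 6, against 100 (the floor) in CD73- and 225.5 in unsorted cells. At day 9 Tgm3 had 2781 in CD49d+ and 1701 in CD73+ cells, against 214.6 in CD73- and 445.5 in unsorted cells. It was at or near the floor in MEF (100), SC4 (157.4) and ESC (105.4), so the 4 poised arrays lay above all 7 others. Sbspon had 2581 in CD49d+ and 2195 in CD73+ cells at day 6, against 167.2 in CD73- and 618.6 in unsorted cells. At day 9 it had 2227 in CD49d+ and 2746 in CD73+ cells, against 283.5 in CD73- and 1282 in unsorted cells. Unlike Tgm3, Sbspon was also high in SC4 (1559), with 201.5 in MEF and 104.8 in ESC.

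Klk1 was the gene whose level in poised cells varied most. It had 665 in CD49d+ and 433.8 in CD73+ cells at day 6 and 1167 and 2490 at day 9, while CD73- cells were at the floor on both days. Unsorted cells were at the floor at day 6 and had 385.7 at day 9. SC4 had the highest Klk1 intensity of the series, 4714, and MEF and ESC were at the floor.

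The signalling genes separated in the controls. Gna14 had 1857 in CD49d+ and 1653 in CD73+ cells at day 6, against 100 in CD73- and 345.1 in unsorted cells, and at day 9 it had 1799 in CD49d+ and 2367 in CD73+ cells, against 303 in CD73- and 737.2 in unsorted cells. SC4 exceeded them all with 3546, and Gna14 was at the floor in MEF and had 169.6 in ESC. Bmx had 1308 in CD49d+ and 911.1 in CD73+ cells at day 6 and 1515 and 1143 at day 9, against 112.6 and 134.7 in CD73- cells and 192.1 and 287.1 in unsorted cells on those days. Bmx was at the floor in MEF, SC4 and ESC alike, which sets it apart from Gna14.

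Among the membrane proteins, Tek was the gene with the highest level in CD73- cells at day 6. It had 1127 in CD49d+ and 1583 in CD73+ cells at day 6 and 1055 and 1673 at day 9, against 459.1 and 633.5 in CD73- cells and 615.9 and 738.2 in unsorted cells. CD73- cells themselves thus had Tek intensities well above those of MEF (117.4) and ESC (100), and SC4 (1299) lay inside the poised range. Ceacam1 had 1713 in CD49d+ and 2128 in CD73+ cells at day 6 and 1685 and 3550 at day 9, against 180.1 and 638.5 in CD73- cells and 238.7 and 641 in unsorted cells. Its controls were 100 in MEF, 916.5 in SC4 and 238.2 in ESC. Laptm5 was the dimmest of the 8, with 303.1 in CD49d+ and 178 in CD73+ cells at day 6 and 334.9 and 216.4 at day 9. CD73- cells had 100 and 124 and unsorted cells 100 and 159.1 on those days, with 100 in MEF, 1203 in SC4 and 344.4 in ESC.

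**Figure D1:**
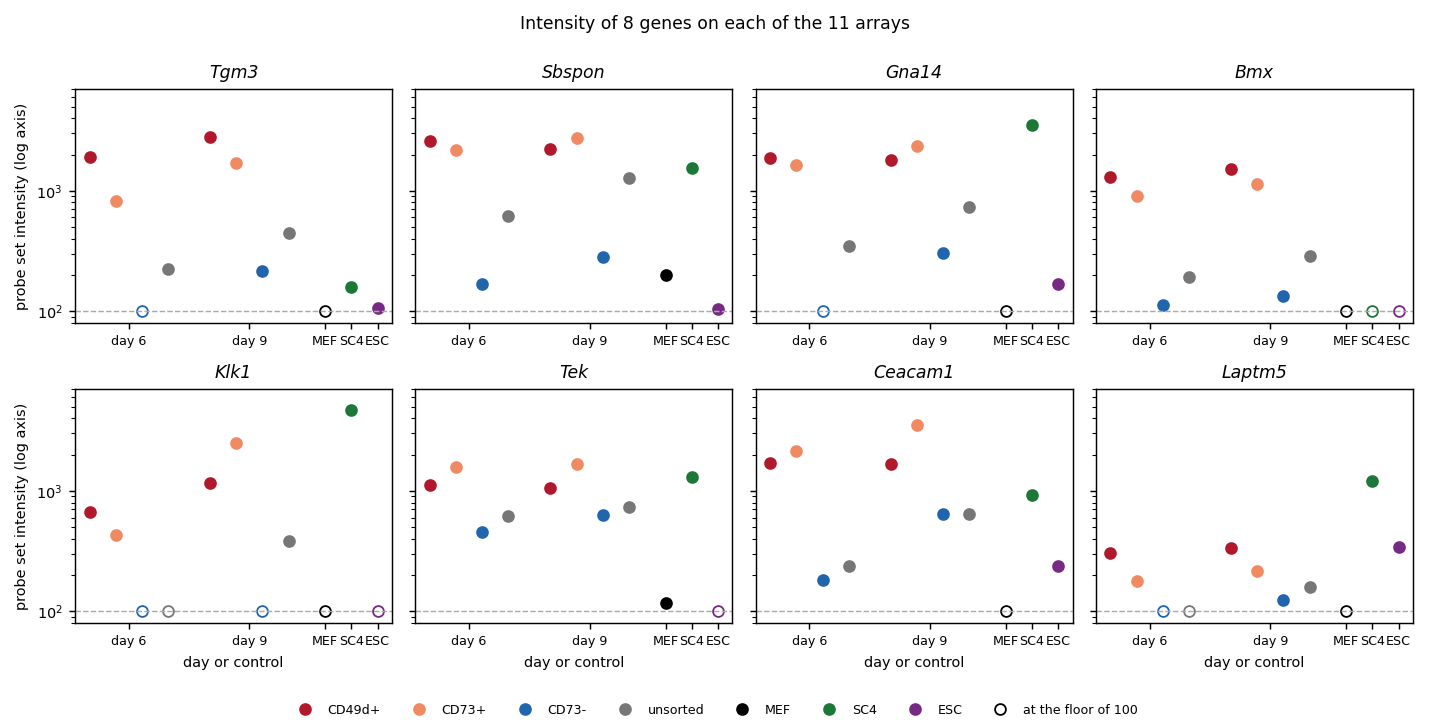
Intensity (log axis) of each of the 8 genes on the 11 arrays, 1 point per array, with CD49d+, CD73+, CD73- and unsorted cells in this order at day 6 and at day 9, followed by the controls; open points are at the floor of 100. All 4 poised arrays lie above the CD73- and unsorted arrays for each gene, and SC4 is the highest array for Gna14 (3546), Klk1 (4714) and Laptm5 (1203).

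The contrast that served to choose the genes was uneven across them. The poised mean over the CD73- mean was 11.2-fold for Tgm3, 11.1-fold for Sbspon, 10.9-fold for Gna14, 9.73-fold for Bmx, at least 9.57-fold for Klk1, 6.37-fold for Ceacam1, 2.47-fold for Tek and 2.25-fold for Laptm5. The values for Tgm3, Gna14 and Laptm5 rest on 1 of 2 CD73- arrays at the floor and may understate the difference. That of Klk1 moved most with 1 array left out, with a log2 difference of 2.38 without CD73- day 9 and 4.14 without CD73- day 6, against 3.26 on all arrays. Among 14301 genes ranked by this difference, Tgm3, Sbspon, Gna14, Bmx and Klk1 took ranks 2, 3, 4, 6 and 7, Ceacam1 rank 13, Tek rank 141 and Laptm5 rank 181. By poised minus unsorted the order changed, with Ceacam1 at rank 2 (5.52-fold), Tgm3 at rank 4 (5.19-fold), Bmx at rank 5 (5.1-fold) and Sbspon at rank 42 (2.72-fold). Each poised array was at least 2-fold above CD73- cells of its day for 6 of the 8 genes, all but Tek and Laptm5, where 0.86% of 14301 genes met that mark. Over unsorted cells it was 5 of 8, against 0.448%. Since these comparisons chose the genes, nothing is read from those counts.

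The control arrays took no part in choosing the genes, though the poised arrays set against them did, and the 8 genes differed in how they compared with SC4. All 4 poised arrays were at least 2-fold above SC4 for 2 of 8 genes, Tgm3 (5.19- to 17.7-fold) and Bmx (at least 9.11- to 15.2-fold), against 2.05% of 14301 genes. All 4 were at least 2-fold below SC4 for 1 of 8, Laptm5, against 1.34% of genes. Klk1 was more than 2-fold below SC4 on 3 of the 4 poised arrays and Gna14 on 1, with means 4.93- and 1.86-fold below it. Sbspon (1.56-fold above SC4 on average) and Tek (1.03-fold) were within 2-fold of SC4 on every poised array, and Ceacam1 was 2.36-fold above, past 2-fold on 2 of 4 arrays. SC4 is 1 array, so these differences have no replicate check. Nt5e was itself high in SC4, at 3738, and Itga4 was at 566.5.

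Fibroblasts and stem cells lay at the other end. All 4 poised arrays were at least 2-fold above MEF for 7 of 8 genes, against 6.9% of 14301 genes, and the same 7 were at least 2-fold above ESC, against 4.64%. Laptm5 was the exception in both, with 3 of 4 poised arrays past 2-fold over MEF and none over ESC, whose level of 344.4 exceeded each of the poised arrays. Mean differences from MEF included at least 21.6-fold for Ceacam1 and 12.0-fold for Sbspon, and those from ESC 23.1-fold for Sbspon and at least 13.3-fold for Tek. Where a control was at the floor the fold is a lower bound, so the genes were not ranked. All 4 poised arrays stood at least 2-fold above MEF, SC4 and ESC together for Tgm3 and Bmx, 2 of 8 genes, against 0.399% of 14301. These comparisons share the poised arrays and each rests on a single control array. High values on the poised arrays were favoured by the choice of the genes, so nothing is read from the counts above MEF, ESC or SC4.

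The 2 poised gates did not hold the genes at equal levels. CD49d+ cells were above CD73+ cells at both days for Tgm3, Bmx and Laptm5, below them at both days for Tek and Ceacam1, and the sign turned between the days for Sbspon, Gna14 and Klk1. The 3 genes above count against 32.4% of 14301 genes, and the 2 below against 26.3%. A gene at the floor in both gates at either day counts in neither share. On the log2 scale CD49d+ minus CD73+ was 0.96 ± 0.146 (SE) for Tgm3, 0.70 ± 0.133 for Laptm5 and 0.46 ± 0.104 for Bmx, and it was -0.58 ± 0.141 for Tek and -0.69 ± 0.443 for Ceacam1. In a fit of all 13312 tested genes (limma, Benjamini-Hochberg), 0 of the 8 passed an adjusted p of 0.05, where 0.03% of all genes did, and the adjusted p ran from 0.0608 for Tgm3 to 1 for Sbspon. An unadjusted p under 0.05 in limma was found for 4 of 8 (Tgm3, Laptm5, Bmx and Tek), against 24.1% of genes. These 4 share the same arrays and are not independent observations. Tgm3 did pass with each array centred on its median (limma adjusted p = 0.0174) and under quantile normalization (0.0483), and Laptm5 with centring (0.043). Those settings called 625 and 340 genes in all, against 4 as deposited, and centring gives floor values unequal levels between arrays. No group has a replicate, so the error of this fit is how far the 4 populations disagreed in their day difference. CD73- and unsorted cells enter that error too. Fibroblast markers differed between the gates as well: 7 of 9 were higher in CD49d+ than in CD73+ cells at both days and 1 was lower, and their summed intensity was 8090 and 4807 in CD49d+ cells at day 6 and day 9, against 4012 and 3029 in CD73+ cells. Thy1 had 784.9 and 314.8 in CD49d+ cells, against 145.7 and 136.1 in CD73+ cells. Dcn, the 1 that was lower, had 1516 and 1286 in CD49d+ cells, against 2320 and 1414 in CD73+ cells. The part of the fibroblast markers in the gate differences of the 8 genes was not tested.

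The gate difference of Klk1 was the least even between the days. CD49d+ cells had 1.53 times the Klk1 intensity of CD73+ cells at day 6, and CD73+ cells had 2.13 times that of CD49d+ cells at day 9. Ceacam1 kept its sign, but CD73+ cells had 1.24 times the intensity of CD49d+ cells at day 6 and 2.11 times at day 9. For 8 of the 8 genes CD49d+ minus CD73+ was lower at day 9 than at day 6, where 38.5% of 14301 genes did the same. The genes share these 4 arrays, so this count does not come from 8 independent observations. A gene at the floor on all 4 poised arrays counts as not lower, which makes the 38.5% smaller.

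**Figure D2:**
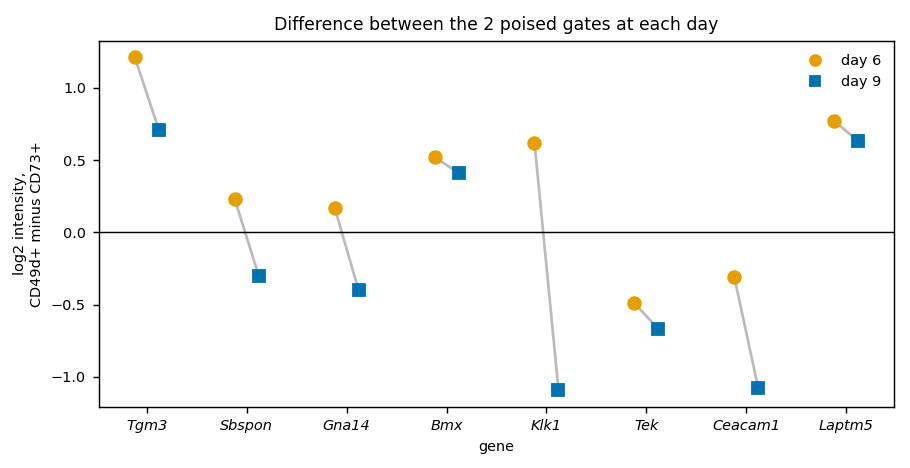
CD49d+ minus CD73+ on the log2 intensity scale at day 6 (circles) and day 9 (squares) for the 8 genes, 1 array per population and day, with a line joining the days of a gene. Tgm3, Bmx and Laptm5 stay above 0 and Tek and Ceacam1 below it, while Klk1 runs through 0 with 0.62 at day 6 and -1.09 at day 9.

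Day 9 was brighter than day 6 for all 8 genes on average over the 4 populations, without passing the test. The log2 difference, day 9 minus day 6, was 1.32 ± 0.434 (SE) for Klk1, 0.99 ± 0.313 for Ceacam1, 0.92 ± 0.103 for Tgm3 and 0.79 ± 0.275 for Gna14, and it ran from 0.18 to 0.48 for Tek, Bmx, Laptm5 and Sbspon. In limma 0 of 8 passed (adjusted p from 0.107 for Tgm3 to 0.565 for Tek), as did 0.0% of all 13312 genes. An unadjusted p under 0.05 with a higher level at day 9 was found for 6 of 8, all but Sbspon and Tek, against 5.52% of genes. Tgm3 passed with each array centred on its median (limma adjusted p = 0.00792), a setting that called 195 genes in all, against 0 as deposited. The median day difference was 0.64 over the 8 genes and -0.008 over all genes tested. Tgm3, Bmx and Laptm5 were higher at day 9 in each of the 4 populations, 3 of 8 genes against 7.58% of 14301. A gene at the floor on both days in any population cannot meet that mark, which makes this share smaller. Because the 8 genes share the same arrays and moved together over them, these counts and the median do not come from 8 independent observations.

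The day differences were unequal across populations. In CD49d+ cells Sbspon, Gna14, Tek and Ceacam1 were slightly lower at day 9 (log2 -0.21, -0.05, -0.10 and -0.02), and in CD73- cells the same 4 genes were higher by 0.76, at least 1.60, 0.46 and 1.83. Ceacam1 in CD73- cells was 3.54-fold higher at day 9 than at day 6, against 1.67-fold in CD73+ cells. Klk1 had the largest change within a poised gate, 5.74-fold in CD73+ cells, while it stayed at the floor in CD73- cells. The day difference of poised cells minus that of CD73- and unsorted cells was negative for 7 of the 8 genes, all but Klk1 (0.69 ± 0.879, SE). It was -1.27 ± 0.306 for Ceacam1, -1.11 ± 0.272 for Gna14 and -0.85 ± 0.227 for Sbspon, so their margin over the other cells was smaller at day 9. None passed in limma (0 of 8, adjusted p = 1 for each to the digits given, against 0.0% of 13312 genes), and 4 of 8 had an unadjusted p under 0.05 and a negative sign (Ceacam1, Gna14, Sbspon and Tek), against 2.93% of genes. The 8 genes share these arrays, which also served to choose them, so nothing is read from that count. Ceacam1 (limma adjusted p = 0.0284) and Gna14 (0.0435) passed with each array centred, a setting that called 30 genes, against 0 as deposited. Centring gives floor values unequal levels between arrays. Where a day 6 array was at the floor, as for Gna14, Tgm3 and Laptm5 in CD73- cells and Klk1 and Laptm5 in unsorted cells, the day difference there is a lower bound.

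**Figure D3:**
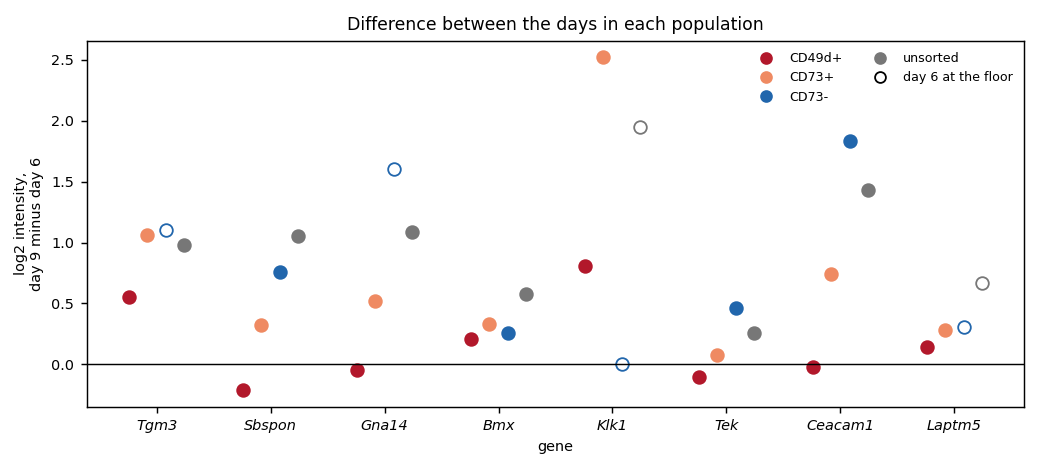
Day 9 minus day 6 on the log2 intensity scale for each gene in CD49d+, CD73+, CD73- and unsorted cells, 1 pair of arrays per point; open points have their day 6 array at the floor, so they are lower bounds, or 0 where day 9 was at the floor too. CD49d+ points lie nearest to or below 0 for Sbspon, Gna14, Tek and Ceacam1, and Klk1 in CD73+ cells is the highest point at 2.52.

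Unsorted cells lay close to CD73- cells for most of the set. On the linear intensity scale the unsorted array stood 0% to 22.3% of the way from the CD73- to the CD73+ array at day 6 (median 11.9%) and 0.0859% to 40.6% at day 9 (median 15.3%). For Nt5e itself the position was 28.2% at day 6 and 40.9% at day 9, and all 8 genes lay below that on both days. The other sorting marker, Itga4, stood at 7.62% and 13.7%, below the medians of the 8 genes. Since the unsorted and CD73- values took part in choosing the genes, low positions were favoured by that choice, and nothing is read from them. Sbspon came nearest to Nt5e (22.3% and 40.6%), Klk1 and Laptm5 were farthest at day 6 (0% each, with both populations at the floor), and Ceacam1 was farthest at day 9 (0.0859%, after 3.01% at day 6). At day 9 unsorted and CD73- cells had Ceacam1 intensities of 641 and 638.5. Intensities need not be proportional to RNA, and the position is no share of cells.

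**Figure D4:**
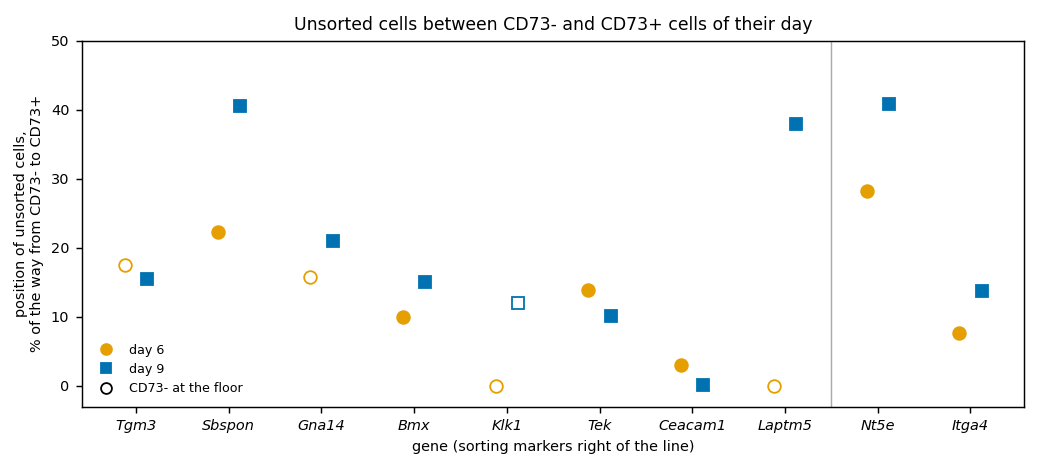
Position of the unsorted array between the CD73- array (0%) and the CD73+ array (100%) of the same day on the linear intensity scale, for the 8 genes and for the sorting markers Nt5e and Itga4; open points have CD73- at the floor. The 8 genes lie below Nt5e (28.2% at day 6, 40.9% at day 9), and Ceacam1 lies at 3.01% and 0.0859%. Itga4 lies at 7.62% and 13.7%.

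The 8 genes moved together over the reprogramming arrays, and less closely once the 3 controls were added. Over the 8 reprogramming arrays Pearson's r of log2 intensity ran from 0.72 to 0.98 over the 28 pairs of genes (median 0.90), which the choice of genes for one contrast brings with it. Over all 11 arrays it ran from 0.12 (Bmx with Laptm5) to 0.98 (Tgm3 with Bmx), with a median of 0.76. For each gene the 3 most alike of 11480 candidate genes were taken, those of highest r over the 11 arrays. Tgm3 was followed by Bmx, the checkpoint ligand gene Vtcn1 and the deacetylase gene Aadac (r = 0.982, 0.979 and 0.967), and Bmx by Aadac, Dzank1 and Tgm3 (0.989, 0.986 and 0.982). Aadac had 371.5 to 527.8 in poised cells, 100 to 110.7 in CD73- cells and the floor value in all 3 controls.

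The genes shared with SC4 had other companions. Sbspon was followed by Nt5e, Rap1gap2 and the amino acid transporter gene Slc38a5 (r = 0.967, 0.966 and 0.959), and Gna14 by Vat1l, the forkhead factor gene Foxo4 and Slc38a5 (0.985, 0.985 and 0.977). Tek was followed by the chloride channel gene Ano1, Cyria and Ctnnd2, a catenin gene (0.984, 0.981 and 0.98), and Klk1 by the natriuretic peptide gene Nppc, Ly6g6d and Rbm20, a splicing regulator (0.975, 0.969 and 0.961). Ceacam1 was followed by the diacylglycerol kinase gene Dgka, Mpped2 and Cdyl (0.975, 0.959 and 0.956), and Laptm5 by the ectonucleotidase gene Enpp3, the DNA sensor gene Aim2 and Zfp418 (0.977, 0.959 and 0.941). Enpp3 had 1354 to 2420 in poised cells and 8967 in SC4. Ano1 had 2630 to 3432 in poised cells and 1193 to 1537 in CD73- cells and was at the floor in MEF and ESC. These correlations describe the same 11 arrays that show the pattern and were given no test.

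Family members and pathway partners of the 8 genes were read on the same arrays. Of 74 listed relatives 70 had a probe set and 41 were tested, and between poised and CD73- cells 3 were higher and 1 lower (limma, adjusted p under 0.05), against 7.17% and 4.88% of all 13312 genes, 12.0% in either direction, so the relatives' share lay near that of all genes. The shift of the whole table was small, with a median of -0.01. In poised cells each of the angiopoietin genes Angpt1, Angpt2 and Angpt4 was at the floor. So were the second Tie receptor Tie1 and the receptor phosphatase Ptprb. These 5 of 5 listed partners of Tek stand against 52.14% to 54.31% of probe sets at the floor on an array. That share takes all probe sets and 1 array at a time, so the measures are unlike. The 5 partners were at or near the floor in the other cells too, with 100 to 116.5 in CD73- and 100 to 133.8 in unsorted cells. MEF had 300.1 for Angpt1 and 256.7 for Angpt2. Of the Tec kinases, Tec, Btk and Txk had floor values on each of the 8 reprogramming arrays.

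Among the Gq relatives of Gna14, Gna11 had 2084 to 2260 in poised cells and 2218 to 2355 in CD73- cells (log2 -0.08 ± 0.063, SE, limma adjusted p = 0.453), and Gnaq 1067 to 1434 against 1028 to 1149 (0.19 ± 0.0613, adjusted p = 0.114). None of 7 tested Gq genes passed, and the list median was -0.08. Among transglutaminases, 0 of 3 tested passed. Tgm2, the widely expressed tissue transglutaminase, had 866 to 1406 in poised cells and 539.6 to 887.2 in CD73- cells (0.59 ± 0.161, adjusted p = 0.0785), and Tgm1, a second keratinocyte enzyme, had 165.3 to 241.2 and 174.7 to 221.4. Of 4 tested spondins and R-spondins 0 passed, with Rspo3, a Wnt agonist, at 114.7 to 317 in poised cells, 199.4 to 267.4 in CD73- cells and 1511 in MEF.

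In the Ceacam list 1 of 6 tested genes was higher and 0 lower. Ceacam2, its closest relative in the mouse and its neighbour on the chromosome, had 130.4 to 197.4 in poised cells and 141 to 167 in CD73- cells (log2 0.10 ± 0.138, adjusted p = 0.688), and Ceacam10 160.2 to 501 and 214.2 to 390.9. The phosphatases that Ceacam1 recruits were Ptpn6, which was higher in poised cells at a low level (125.9 to 148, against 100.6 to 108.8 in CD73- cells, 0.35 ± 0.0554, limma adjusted p = 0.0244), and Ptpn11, with 1309 to 1481 and 1529 to 1671 (-0.21 ± 0.0635, adjusted p = 0.102). The Laptm5 relative Laptm4b was lower in poised cells, with 2806 to 3318 against 3684 to 4021 (-0.35 ± 0.0712, adjusted p = 0.0422), and Laptm4a did not pass (0.00 ± 0.0675, adjusted p = 1). The calls of Ptpn6 and Laptm4b ended without any 1 of several arrays (adjusted p up to 0.146 and 0.226).

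The kallikreins are the family of Klk1. Of 27 measured genes of the list 14 were tested, 2 rose and 0 fell, against the same 7.17% and 4.88%. Klk1b22 had 209.7 to 273.2 on the poised arrays and was at the floor in CD73- cells, at least 2.38-fold higher (log2 1.25 ± 0.104, limma adjusted p = 0.0064), with 626.1 in SC4. Klk1b24 had 372.5 and 241.4 in CD49d+ and CD73+ cells at day 6 and 481.7 and 667 at day 9, against 140.7 and 187.6 in CD73- cells (1.34 ± 0.252, adjusted p = 0.0337). Klk1b5 was above the floor in CD49d+ (107.2) and CD73+ cells (246.5) at day 9 and in SC4 (509.4) and at the floor elsewhere. These genes are relatives of Klk1 in a tandem cluster, and whether their probe sets respond to Klk1 RNA was not tested. The Klk1b22 call did not hold without CD73- day 6 (log2 1.31). That of Klk1b24 did not hold without CD49d+ day 6, CD73- at either day or unsorted at either day (log2 1.17 to 1.52). The Klk1b24 call also ended on the 6 sorted arrays (limma adjusted p = 0.0564), with adjustment over all 22180 genes (0.0562) and without the day term (0.102). Downstream, the kininogen genes Kng1 and Kng2 had floor values in every reprogramming population, and the kinin receptor genes Bdkrb1 and Bdkrb2 were at the floor in poised cells.

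**Figure D5:**
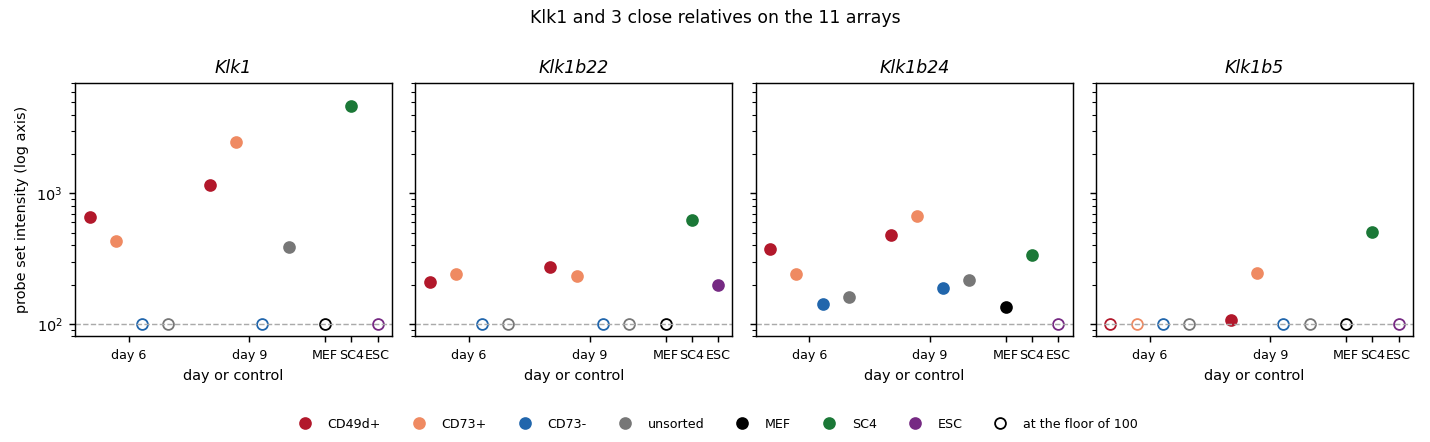
Intensity (log axis) of Klk1 and its relatives Klk1b22, Klk1b24 and Klk1b5 on the 11 arrays, drawn as in the plot of the 8 genes, with open points at the floor of 100. Klk1, Klk1b22 and Klk1b5 are highest in SC4 (4714, 626.1 and 509.4), and Klk1b24 is highest in CD73+ cells at day 9 (667).

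Genes next to the 8 on the chromosome were compared as well. Of 16 nearest protein-coding neighbours 13 had a probe set and 8 were tested, of which 1 was higher in poised cells and 0 lower, against 7.17% and 4.88% of all 13312 genes, with a median of 0.16 (all genes, -0.01). The 1 was Pir, the pirin gene beside Bmx on the X chromosome, a neighbour singled out after its values were seen. Pir had 1069 and 996.4 in CD49d+ and CD73+ cells at day 6 and 1037 and 939.7 at day 9, against 490.4 and 360.1 in CD73- cells, a 2.4-fold difference (log2 1.26 ± 0.112, SE, limma adjusted p = 0.00728). Unlike Bmx, Pir was expressed in all controls, with 361.3 in MEF, 1605 in SC4 and 488.5 in ESC. Gnaq, the neighbour of Gna14, and Ceacam2, beside Ceacam1, are given above.

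Several of the 8 are known from other cell types, whose markers were read on the same arrays. The counts below stand against 7.17% of all 13312 tested genes higher and 4.88% lower in poised than in CD73- cells. For the floor, 52.14% to 54.31% of probe sets were there on a single array. That is an unlike measure, since the marker counts are of genes at the floor on all poised arrays. Of 14 endothelial markers 9 were tested between poised and CD73- cells, 2 rose and 1 fell, and 7 were at the floor on all poised arrays, among them Tie1, Emcn, Erg and Vwf. The endothelial sum was 1502 to 1752 in poised cells, 1561 to 1654 in CD73- cells and 1611 to 1768 in unsorted cells, where 1400 is all markers at the floor. Cldn5 (log2 0.52, adjusted p = 0.0137) and Ecscr (0.62, adjusted p = 0.0374) rose and Egfl7 fell (-0.29, adjusted p = 0.0428), each call being lost without any 1 of several arrays. Of 13 macrophage and blood cell markers 0 of 4 tested passed and 10 were at the floor in poised cells, including Ptprc, Csf1r and Adgre1, with sums of 1760 to 1820 in poised and 1784 to 1870 in CD73- cells. Of 10 measured keratinocyte markers 0 of 8 tested rose and 1 fell (Krtdap, log2 -1.34, adjusted p = 0.021), with sums of 1220 to 1695 in poised, 1994 to 2118 in CD73- and 5599 to 6019 in unsorted cells, and Ivl, Flg and Trp63 were at the floor in poised cells. Of 9 epithelial markers 2 of 8 tested rose (Ocln, log2 0.98, and Krt8, 0.43) and 1 fell (Krt19, -0.42), with sums of 1909 to 3323 in poised, 1700 to 2461 in CD73- and 2743 to 4117 in unsorted cells, and Cldn7 was at the floor in poised cells. Of 9 fibroblast markers, all tested, 0 rose and 2 fell, with a median of -0.55. These were the matrix genes Postn (log2 -1.95, limma adjusted p = 0.0282) and Col3a1 (-1.13, adjusted p = 0.0188), and the sums were 3029 to 8090 in poised, 6176 to 8139 in CD73- and 8870 to 12704 in unsorted cells. Of 9 stem cell markers 4 were tested, of which Sall4 rose (0.77, limma adjusted p = 0.0257) and Utf1 fell (-1.06, adjusted p = 0.0142). On the poised arrays 7, Nanog among them, were at the floor. The stem cell sums were 1379 to 1999 in poised, 1580 to 2111 in CD73- and 1604 to 2119 in unsorted cells. The part of these markers in the levels of the 8 genes was not tested.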

How the data were processed

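The deposited values are linear intensities of 41345 probe sets on 11 arrays, per the labels 1 array per sample. Partek is named, with no version, per the submitters' processing notes, and how probes were summarised, corrected for background and scaled is not stated in the labels or headers used here. No intensity lies below 100, and log2 was taken of the values as deposited, where the planned design had assumed values already on the log2 scale. Probe sets with 1 symbol (23521) were named from GEO's platform annotation, with symbols updated through RefSeq GRCm38.p6, and the brightest represented a gene. Of 22180 genes, 14301 exceeded the median of all values (100) on some array, and 13312 were tested after leaving out genes at the floor on all 8 reprogramming arrays or with no residual spread. Population and day were terms of a linear model on these arrays (limma 3.58.1 under R 4.3.3, leaving 3 residual degrees of freedom, or 2 once a poised-by-day term was added). No group has a replicate, the labels do not say that the days were separate cultures, and p-values measure only agreement between these arrays, which may be technical. Benjamini-Hochberg adjustment ran over all tested genes. A fold against the floor is a lower bound. Members and lists were chosen with earlier results of these data known. Named were the 8 genes, relatives that passed poised minus CD73- with at most 2 bright ones per list, and the 3 genes of highest r per member above the floor on at least 5 arrays; Klk1b5, Ceacam2, Klk7, Klk8, Pir and the genes at the floor were named after their values were seen. Alternatives were other scalings, adjustment over all 22180 genes, an offset of 50, no day term, the 6 sorted arrays and each array left out. Adjustment over all 22180 genes fitted the same genes and changed only the number adjusted for.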

Additional observations from a re-analysis of the deposited data

Results flagged for a closer look

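The difference between the 2 poised gates turned its sign between the days for 3 of the 8 genes. CD49d+ minus CD73+ on the log2 scale was 0.62 at day 6 and -1.09 at day 9 for Klk1, 0.17 and -0.40 for Gna14, and 0.23 and -0.30 for Sbspon. Each value compares 1 array with 1 array, and this change between the days was not tested.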

How the results depend on the processing

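Across the alternatives no member passed in the gate, day or poised-by-day tests except with each array centred on its median, which called 2, 1 and 2 members, and under quantile normalization, which called 1 in the gate test. Centring gives floor values unequal levels between arrays. It called 625 genes in the gate test (4 as deposited), 195 in the day test (0) and 30 in the poised-by-day test (0). In the gate test 340 genes passed under quantile normalization and 159 without the day term. An offset of 50 left 1, adjustment over all 22180 genes 1 and the 6 sorted arrays 0. For poised minus CD73-, 999 genes passed with adjustment over all 22180 genes, against 1604. Relatives called there numbered 4, with 2 left under that adjustment and 1 on the 6 sorted arrays. Of the genes called, 59.5% were higher in poised cells as deposited and 53.2% under quantile normalization (51.5% with centring); in the gate test 1 of 4 calls was higher in CD49d+ cells as deposited, against 44.1% of calls under quantile normalization and 60.5% with centring. With 1 array left out, 0 to 0 genes and 0 to 0 members passed in each of the gate, day and poised-by-day tests in limma (1694 to 3063, 786 to 2155 and 299 to 911 genes at an unadjusted p under 0.05), and poised minus CD73- called 201 to 2107 genes and 0 to 4 relatives (201 and 0 without CD73- day 6, 378 and 1 without CD73- day 9, 529 and 3 without CD73+ day 6, 421 and 2 without CD73+ day 9). Sbspon turned to 0.01 in the gate difference with centring. Leaving out 1 array turned signs within ranges of -0.50 to 0.43 (Sbspon), -0.67 to 0.44 (Gna14) and -1.04 to 0.56 (Klk1) in the gate difference, and -0.49 to 0.02 (Tgm3), -0.31 to 0.01 (Bmx) and -0.28 to 1.67 (Klk1) in the poised-by-day difference. The fold of the 8 genes over CD73- cells kept its sign throughout, though that of Klk1 ran from 2.38 to 4.14 on the log2 scale with 1 array left out, against 3.26. Each of the 8 genes had 1 probe set naming it alone, so the planned comparison with a further probe set gave no value. The causes of these changes were not tested. Day was a term of the gate and poised minus CD73- fits and so set populations of the same day against each other. Beyond that, no paired analysis was possible because the labels carry no replicate numbers. Between 52.14% and 54.31% of probe sets lie at the floor, where no difference can be read.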

Other observations

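The kallikrein list held a pattern that none of the sorted populations showed. Klk10 had 1276 and 692.8 in unsorted cells at day 6 and day 9, against 188.9 to 388.5 on the 6 sorted arrays and 1338 in SC4. Klk8 had 363.3 and 280.7 in unsorted cells and no more than 109.4 on a sorted array, and Klk7 had 214 and 168.7 in unsorted cells and was at the floor on every sorted array. Krtdap, a keratinocyte gene, had 1645 and 1787 in unsorted cells and 176.4 to 877.3 on the sorted arrays. These genes were singled out after their values were seen, and the differences carry no test.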
